A study of Macaca fascicularis with 44 samples.

Results

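The dentate-high genes described here are 64 of the 17293 gene identifiers counted by RNA-seq in 4 brain regions of the female cynomolgus macaque, Macaca fascicularis. They were selected on the saline libraries alone. In those libraries the lowest posterior dentate gyrus value of a gene had to be at least 2 CPM (counts scaled to a library total of 1000000 gene reads) and at least 1.5 times the highest value in the basolateral amygdala and in the anterior cingulate cortex. Libraries were made from total RNA of the anterior dentate gyrus (aDG), the posterior dentate gyrus (pDG), the amygdala's basolateral part (BLA) and the cortex of the anterior cingulate (ACC). The treated animals were exposed to betamethasone, a synthetic steroid agonist of the glucocorticoid receptor, and the controls to saline. There were 5 aDG, 5 pDG, 4 BLA and 6 ACC libraries from the betamethasone arm, and 6 libraries per region from the saline arm. All animals were female. Age, dose and timing are not stated in the labels. Nothing there ties each replicate to an animal of its own, so p-values reflect the spread among these libraries, part of which may be technical.

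The dentate gyrus is the entry stage of the hippocampal circuit. Its principal cells are densely packed granule cells, which receive input from the entorhinal cortex and send mossy fibres to area CA3. It keeps a pool of neural progenitors after birth and expresses the glucocorticoid receptor, and it is much studied in work on stress hormones. The primate anterior hippocampus corresponds to the ventral hippocampus of rodents. The amygdala and the cingulate cortex hold pyramidal-type projection neurons and no granule cell layer.

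The deposited tables give Ensembl-style identifiers without gene names, and 0 of them matched the reference gene table used here. Genes are therefore given by identifier, with no position, sequence or function, and the labelled regions and the word "dentate" could not be checked against known marker genes. At most 2 identifiers per direction are named in a comparison unless stated. In bulk tissue, fewer cells of a type and less RNA per cell cannot be told apart.

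Each library held between 28449737 and 83322595 gene reads. Both libraries that stood apart were saline ones. In the library labelled aDG saline replicate 5, 62 of the 64 members lay below every other aDG saline library. In the same library 38 of the 64 lay within the range of the BLA saline libraries, 18 below all of them and 8 above. The selection made members low in ACC too, so these counts do not tell BLA from ACC. The median member in that aDG library stood at 15.7% of its pDG saline median, where the other aDG saline libraries stood at 75.8% to 98.0%. BLA saline replicate 5, which the selection also left out, held 20 members above and 29 below every other BLA saline library. In 7 members it was at least as high as the lowest pDG saline library. With it kept in the selection, 55 of the 64 members remained. Results below leave out both libraries unless stated, so that 42 libraries enter, and results with them follow where they differ.

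Among the 64 members the ratio of the lowest pDG to the highest BLA or ACC saline value had a median of 2.08 and ranged from 1.51 to 47.2. These values chose the members and are given as a description. The ratio was below 2 in 29 members, from 2 to below 5 in 29 and at least 5 in 6. BLA held the limiting value for 36 members and ACC for 28. At the ratio limit, the members just inside had 1.513, 1.515 and 1.526, and the genes just outside had 1.488, 1.480 and 1.464. At the level limit, the members just inside had a lowest pDG saline value of 2.56 and 3.27 CPM, and the genes just outside that met the ratio had 1.98 and 1.86 CPM.

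Levels of the members spanned a wide range. The median pDG saline level was 41.2 CPM for the median member and went from 3.18 to 1552 CPM over members. It was below 10 CPM in 13 members, from 10 to below 100 CPM in 33, and at least 100 CPM in 18. These CPM are not divided by gene length, so they do not rank the genes by abundance. The median coefficient of variation over members was 20.6% to 28.4% in the 8 groups, and 9.98% to 15.3% for all genes with a mean of at least 2 CPM in the group. Members were taken at any level, including some below 2 CPM, mostly in BLA and ACC, so the 2 ranges are not like for like. In pDG saline libraries the highest value of a member was less than 2 times the lowest in 40 members, from 2 to below 3 times in 17 and at least 3 times in 7.

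ENSMFAG00000039481 had the largest ratio, 47.2. In aDG betamethasone libraries it had 60.5, 62.7, 52.8, 88.0 and 62.7 CPM, and in aDG saline libraries 59.6, 39.7, 40.6, 24.9 and 47.7 CPM. In pDG betamethasone libraries it had 40.5, 56.2, 62.4, 58.1 and 57.0 CPM, and in pDG saline libraries a lowest value of 12.6, a median of 38.3 and a highest of 93.3 CPM. Every one of these values lies far above the other regions. BLA betamethasone libraries had 0, 0.0291, 0.0178 and 0 CPM, and ACC betamethasone libraries had at most 0.146 CPM. ACC saline libraries had at most 0.267 CPM, and the BLA saline libraries at most 0.0234 CPM. The library labelled aDG saline replicate 5 had 0.281 CPM of this gene.

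ENSMFAG00000045093 had the next largest ratio, 10.4. It had 132, 160.4, 150, 114 and 150 CPM in pDG betamethasone libraries and 117 to 190 CPM (median 146) in pDG saline libraries. In BLA it had 5.33, 7.09, 6.39 and 13.3 CPM with betamethasone and 9.90, 9.14, 11.2, 5.18 and 6.10 CPM with saline. In ACC it had 2.27 to 4.44 CPM (median 4.11) with betamethasone and 1.91 to 5.62 CPM (median 3.74) with saline. No dentate gyrus value other than that of aDG saline replicate 5 (9.42 CPM) overlapped the other 2 regions.

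The members of highest level were ENSMFAG00000034246 and ENSMFAG00000000781. The first averaged 1603 ± 169 CPM in pDG betamethasone libraries (SD, n = 5) and 1489 ± 249 CPM in pDG saline libraries (SD, n = 6). Its BLA values were 327, 364, 476 and 407 CPM with betamethasone and 322, 422, 451, 371 and 460 CPM with saline. ENSMFAG00000000781 averaged 489 ± 62.8 CPM in pDG betamethasone libraries (SD, n = 5) and 518 ± 43.6 CPM in pDG saline libraries (SD, n = 6), with 168 to 229.5 CPM in ACC betamethasone libraries and 151 to 249 CPM in ACC saline libraries. In both genes BLA saline replicate 5 went against its region, with 1260 CPM of ENSMFAG00000034246 and 702 CPM of ENSMFAG00000000781.

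**Figure D1:**
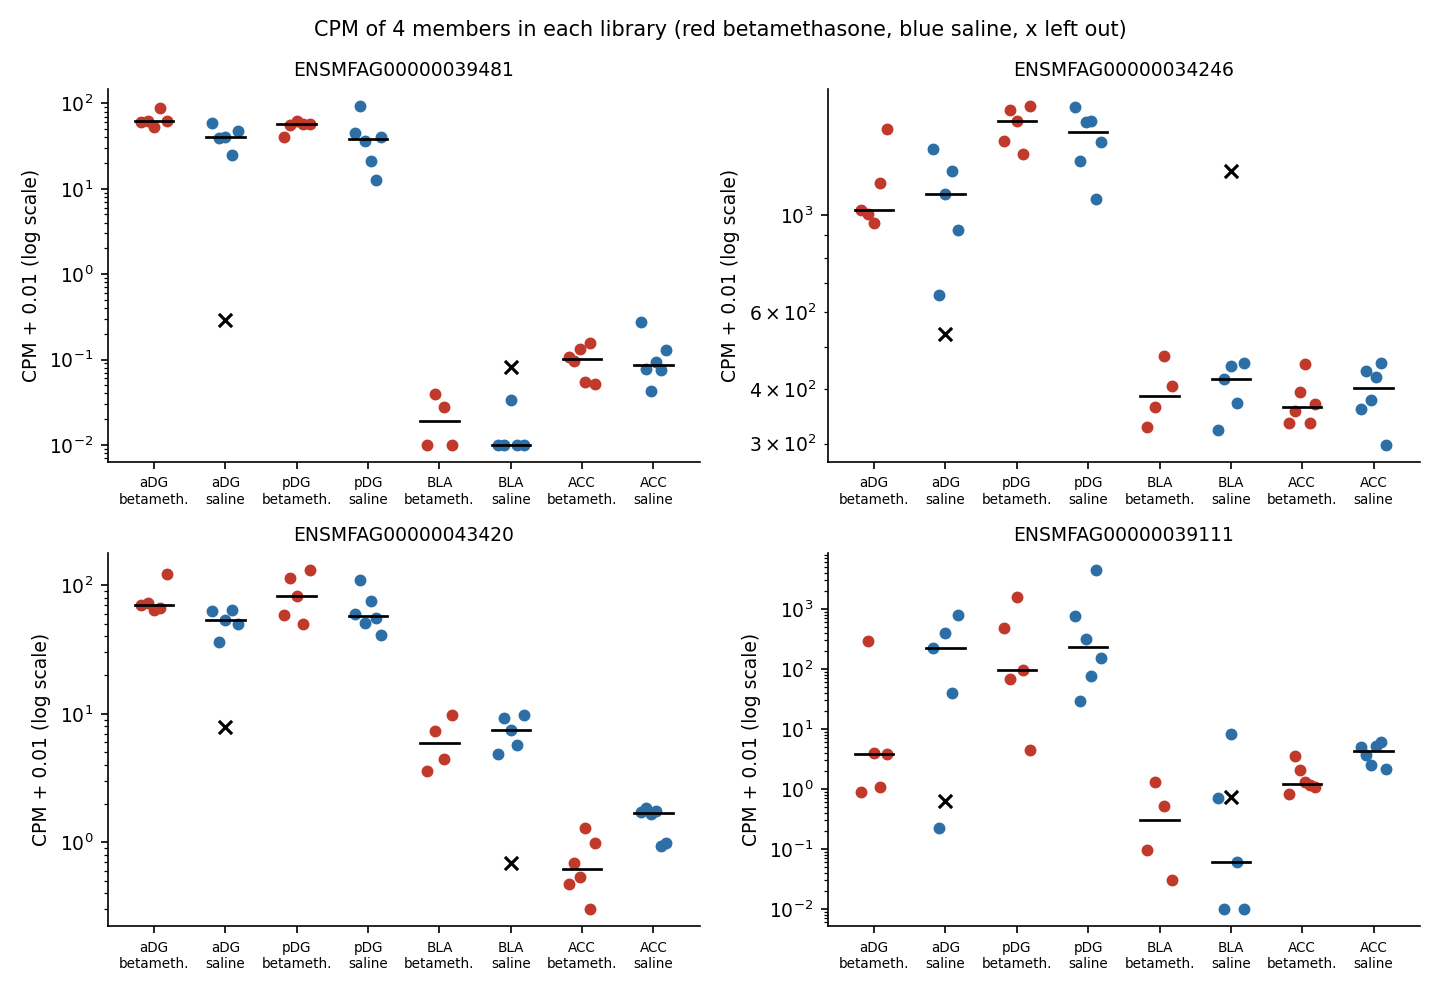
CPM (plus 0.01, log axis) of 4 members in each library, by region and treatment; red points are betamethasone libraries, blue points saline libraries, crosses the 2 libraries left out and bars the group medians. ENSMFAG00000039481 is near 0 outside the dentate gyrus, ENSMFAG00000034246 is high everywhere and higher in the dentate gyrus, ENSMFAG00000043420 is lower in ACC than in BLA, and ENSMFAG00000039111 spans 29.3 to 4425 CPM within the pDG saline group.

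The median over members of the level relative to the pDG saline median summarises each library. It was 102.0% to 125.2% in pDG betamethasone libraries (median 111.0%) and 90.7% to 109.7% in pDG saline libraries (median 101.1%). In aDG it was 83.7% to 101.9% with betamethasone (median 89.7%) and 75.8% to 98.0% with saline (median 93.9%). BLA stood at a median of 18% with betamethasone and 18.4% with saline, and ACC at 18.03% with betamethasone and 20.5% with saline. The dentate gyrus and the other regions did not overlap once both libraries that stood apart were left out, as the selection fixes for pDG, BLA and ACC saline libraries. The treatment groups overlapped within each region.

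**Figure D2:**
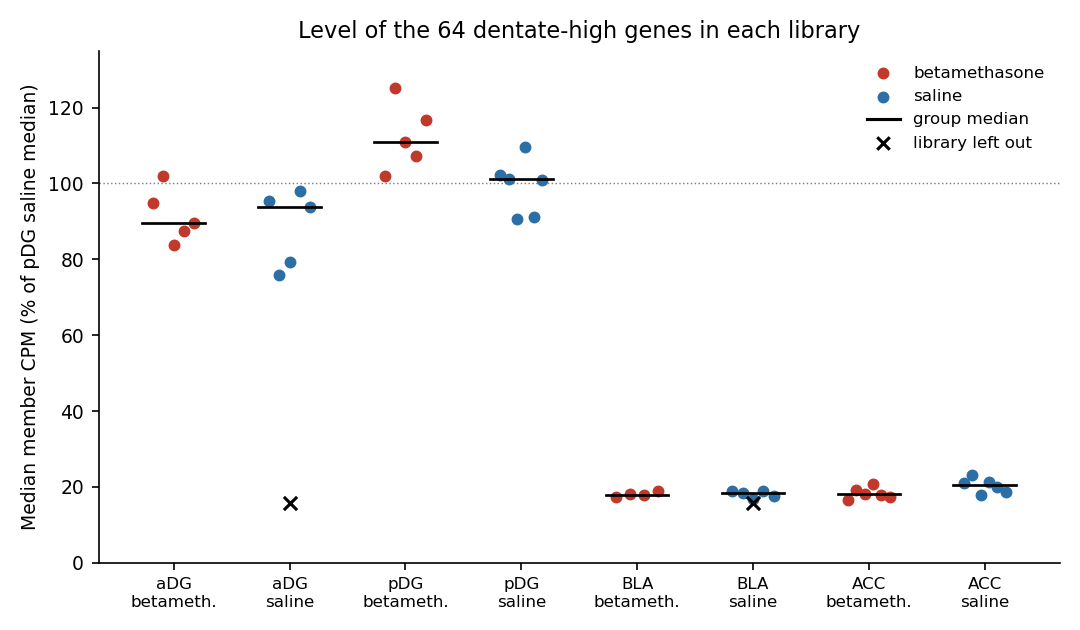
Median over the 64 members of CPM as a percent of the member's pDG saline median (y axis), 1 point per library, by region and treatment; bars are group medians and crosses the 2 libraries left out. The aDG and pDG libraries sit between 75.8% and 125.2%, the BLA and ACC libraries between 16.6% and 23.2%, and the 2 libraries left out, labelled aDG saline replicate 5 and BLA saline replicate 5, at 15.7% each.

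The first question was whether genes chosen in saline libraries keep their regional pattern in betamethasone libraries, none of which took part in the selection. The same rule applied to the betamethasone libraries was met by 56 of the 64 members and by 115 genes in all, 0.665% of identifiers. The 56 are 87.5% of the members and 48.7% of the 115 genes. In all 64 members the lowest pDG betamethasone value still exceeded the highest BLA and ACC betamethasone value. The ratio had a median of 2.58 and was larger than in the saline libraries in 44 members, with the caution that the betamethasone groups of pDG and BLA hold fewer libraries, which tends to raise a lowest value and lower a highest one. The 8 members outside the rule had ratios of 1.08 to 1.47.

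ENSMFAG00000039111 and ENSMFAG00000028602 had the largest falls of this ratio as a fold of its saline value. For ENSMFAG00000039111 it was 1.2498 in betamethasone libraries and 3.49 in saline libraries, and for ENSMFAG00000028602 it was 1.08 in betamethasone libraries and 1.92 in saline libraries. Of all members, ENSMFAG00000039111 had the widest spread among pDG saline libraries, with a highest value 151 times the lowest. It had 479.9, 69.2, 1572, 96.7 and 4.48 CPM in pDG betamethasone libraries and 29.3 to 4425 CPM (median 235) in pDG saline libraries. In aDG it had 0.900, 292, 3.91, 1.08 and 3.86 CPM with betamethasone and 226, 0.214, 395, 40.03 and 804 CPM with saline. Both treatments thus held aDG libraries at the level of ACC, where betamethasone libraries had at most 3.59 CPM and saline libraries at most 6.09 CPM. ENSMFAG00000028602 had 15.1, 11.3, 16.9, 12.7 and 9.20 CPM in pDG betamethasone libraries. ACC betamethasone libraries had 2.95 to 8.49 CPM of it (median 4.82), so the lowest pDG and the highest ACC value were close. BLA betamethasone libraries were further off, with 1.45 to 2.10 CPM.

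**Figure D3:**
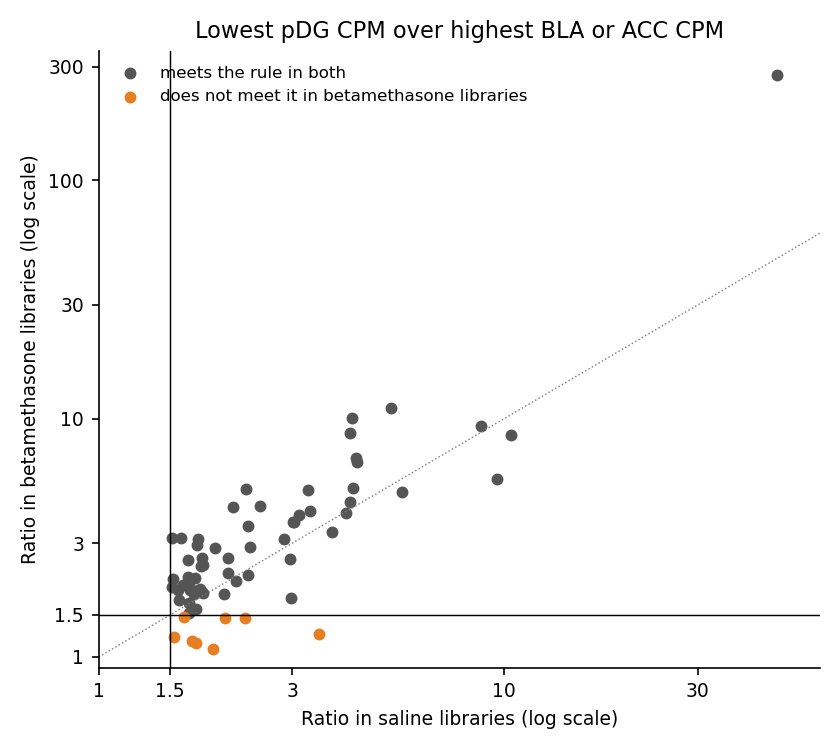
Lowest pDG CPM over highest BLA or ACC CPM for the 64 members, in betamethasone libraries (y axis, log scale) against saline libraries (x axis, log scale); solid lines mark the limit of 1.5, the dotted line equal ratios, and orange points the 8 members that do not meet the rule in betamethasone libraries. The x values chose the members; all 64 lie above 1 on the y axis.

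In edgeR fits of the 20 betamethasone libraries, 14962 genes passed the filter on low counts, the 64 members among them. All 64 were higher in pDG than in BLA at an adjusted p under 0.05, where 11.5% of all genes tested were higher. The median log2 difference over members was 2.62 (1.02 to 11.99), and over all genes tested 0.02. All 64 were also higher in pDG than in ACC, where 22.2% of all genes were higher, with a median log2 difference of 2.64 (0.91 to 9.24). The largest edgeR adjusted p among members was 0.00235 against BLA and 0.00542 against ACC.

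The selection used no aDG library, and the betamethasone contrasts of aDG share no library with it, so they show whether the pattern extends along the dentate gyrus. All 64 members were higher in aDG than in BLA in betamethasone libraries, against a background of 11.7% of genes, with a median log2 difference of 2.14 (0.90 to 12.20). All 64 were higher in aDG than in ACC, against a background of 25.1%, with a median of 2.36 (0.41 to 9.45). With single libraries left out, 62 to 64 passed in each of these aDG comparisons. Without aDG betamethasone replicate 2, 62 passed in each. ENSMFAG00000039111 had 292 CPM in that library and 0.900 to 3.91 CPM in the other aDG betamethasone libraries. ACC betamethasone libraries had at most 3.59 CPM of it, so its higher aDG level rested on 1 library. On the stricter rule of non-overlap with the 1.5 limit, aDG betamethasone libraries met it in place of pDG for 45 members and 87 genes in all (0.503%), and aDG saline libraries for 40 members and 48 genes in all (0.278%). The aDG saline count divides by the same BLA and ACC saline values on which the members were chosen, so it is a description and not independent of the selection. A total of 34 members met the rule in pDG betamethasone, aDG betamethasone and aDG saline libraries. The matching count over all genes is not given here, so the 34 are a description of the members only.

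**Figure D4:**
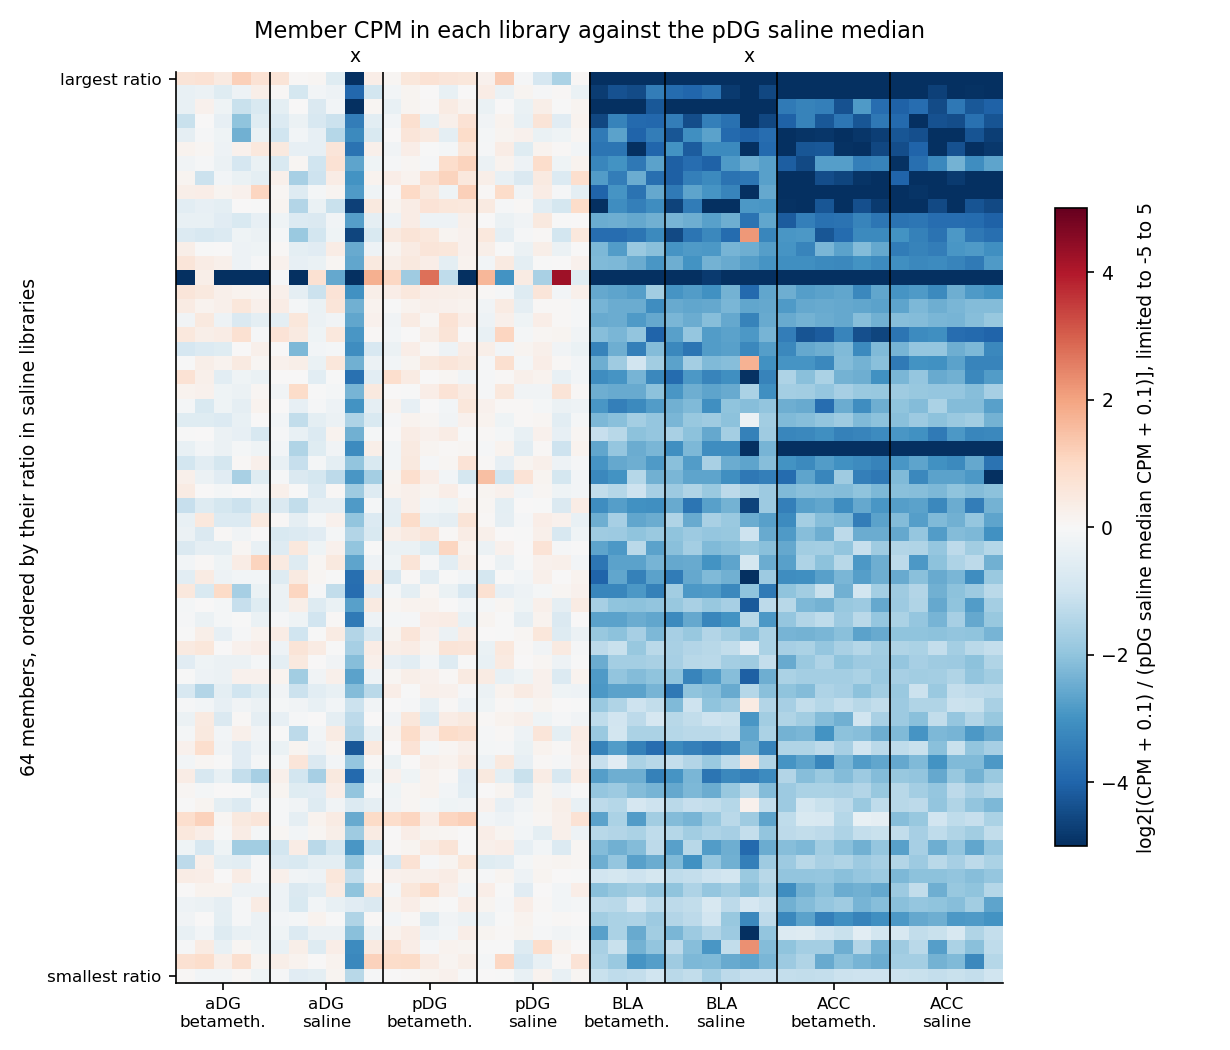
CPM of the 64 members (rows, ordered by ratio in saline libraries) in each of the 44 libraries (columns, by region and treatment), as log2 of CPM plus 0.1 over the pDG saline median plus 0.1, capped at both ends; red is higher and blue lower, and x marks both libraries that stood apart. Most cells of the aDG and pDG columns are pale, with single darker cells, the row of ENSMFAG00000039111 and the column of aDG saline replicate 5 apart from them. That column is blue like the BLA and ACC columns.

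Between the parts of the dentate gyrus, members were mostly lower in aDG, on the side that the selection favours, since it required high pDG values only. In betamethasone libraries 55 of the 64 members had a negative log2 difference of aDG against pDG, with a median of -0.32, where all genes tested had a median of 0.004. The median aDG level was 82.7% of the median pDG level for the median member with betamethasone and 91.6% with saline. In edgeR, 0 members were higher in aDG, where 1.44% of all genes were, and 4 were lower, where 1.24% of all genes were. At an unadjusted p under 0.05, 0 members were higher, where 8.45% of all genes were, and 23 were lower, where 8.18% were. DESeq2 found 0 members higher, where 2.7% of all genes were, and 9 lower, where 2.57% were. The edgeR count depended on the design: with libraries grouped by title number as a block, 9 members were lower. The share of all genes lower under the block is not given here, so the 9 cannot be set against a background.

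ENSMFAG00000000864 had the lowest p of these. It had 20.9, 29.6, 25.04, 21.7 and 29.9 CPM in aDG betamethasone libraries and 33.4, 54.7, 41.4, 40.1 and 51.8 CPM in pDG betamethasone libraries, with no overlap. Its log2 difference was -0.84 ± 0.16 (SE), with an edgeR adjusted p of 0.00726. ENSMFAG00000043925 had 1.79, 1.103, 2.26, 1.56 and 2.06 CPM in aDG and 4.02, 3.16, 3.78, 3.74 and 3.06 CPM in pDG, which is -1.05 ± 0.21 (SE) in log2 with an adjusted p of 0.0101 in edgeR.

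The others of the 4 were ENSMFAG00000032788 and ENSMFAG00000034246, named because the count is small and after their values were seen. ENSMFAG00000032788 had 4.63, 4.22, 4.61, 6.42 and 6.004 CPM in aDG and 10.05, 11.6, 10.8, 8.15 and 8.70 CPM in pDG betamethasone libraries (log2 difference -0.97 ± 0.23 SE, edgeR adjusted p = 0.0310). ENSMFAG00000034246 had 1029, 1007, 961, 1184 and 1571 CPM in aDG and 1481, 1737, 1639, 1381 and 1778 CPM in pDG (log2 difference -0.51 ± 0.13 SE, edgeR adjusted p = 0.0418), and its groups overlapped. In the saline libraries, which the fit did not use, aDG and pDG overlapped for each of the 4. ENSMFAG00000000864 had 19.5 to 43.3 CPM in aDG saline and 28.3 to 59.5 CPM in pDG saline libraries, and ENSMFAG00000043925 had 1.18 to 2.81 CPM in aDG and 2.56 to 4.24 CPM in pDG. ENSMFAG00000032788 had 1.97 to 6.87 CPM in aDG saline and 3.88 to 10.8 CPM in pDG saline libraries, and ENSMFAG00000034246 had 656 to 1417 CPM in aDG and 1088 to 1769 CPM in pDG. Without pDG betamethasone replicate 2, 3 or 4 the count fell to 2, ENSMFAG00000000864 and ENSMFAG00000043925. On the higher side, ENSMFAG00000039481 (0.21) and ENSMFAG00000032756 (0.13) had the lowest p, and neither passed.

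Outside the dentate gyrus the members divided between BLA and ACC. With betamethasone, the BLA median was at least 2 times the ACC median in 11 members, the ACC median at least 2 times the BLA median in 8, and the others lay within 2 times. With saline the counts were 11 and 7. ENSMFAG00000043420 had 3.55, 7.38, 4.41 and 9.71 CPM in BLA betamethasone libraries and 0.292 to 1.28 CPM in ACC betamethasone libraries. ENSMFAG00000039481 was higher in ACC than in BLA but near 0 in both, with at most 0.267 CPM in ACC and 0.0291 CPM in BLA. The counts above set no lower limit on level, so they include members with few reads in these regions.

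The second question was whether the members shifted with betamethasone. In edgeR, 0 members passed the threshold in any region, so no member can be said to have risen or fallen with treatment by that test. The saline libraries of pDG, BLA and ACC chose the members and also form the saline side of these contrasts, so values there are given as a description. For the aDG comparison, which shares no library with the selection, 14480 genes including the 64 members were tested. In all, 1 gene passed, 0.00691% of those tested. At an unadjusted p under 0.05, 2 members were higher, where 1.31% of all genes were, and 0 were lower, where 2.96% were. DESeq2 called 0 members and 0.256% of all genes. The median log2 change was 0.07 over members and 0.02 over all genes tested, and 44 members (68.8%) were positive, where 54.8% of all genes were.

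The aDG members of lowest p were ENSMFAG00000039481 and ENSMFAG00000043420. ENSMFAG00000039481, whose values are given above, had 0.63 ± 0.20 in log2 (SE; edgeR adjusted p = 0.843), and its groups overlapped. ENSMFAG00000043420 had 70.4, 72.2, 64.4, 66.3 and 122 CPM with betamethasone and 62.6, 36.5, 54.0, 64.4 and 49.8 CPM with saline, which is 0.57 ± 0.20 (SE) in log2 with an adjusted p of 0.948 in edgeR. The highest saline and the lowest betamethasone value of this gene were almost equal. ENSMFAG00000046154 (-0.34) and ENSMFAG00000003860 (-0.38) had the lowest p on the negative side.

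With the library labelled aDG saline replicate 5 kept, the values in aDG moved: the median change of the members was 0.26 and 55 of 64 were positive. Still 0 members passed. That library held 62 members below every other aDG saline library, and without it the median was 0.07.

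In pDG, 14427 genes including the 64 members were tested, and 1 gene in all passed (0.00693%). The median log2 change was 0.18 over members and 0.02 over all genes, and 53 of 64 members (82.8%) were positive, where 54.2% of all genes were. At an unadjusted p under 0.05, 6 members were higher, where 4.72% of all genes were, and 0 were lower, where 4% were. With single libraries left out the median ranged from 0.14 to 0.24 and 49 to 55 members were positive. Members were required to be high in every pDG saline library, so the saline side of this contrast is not independent of the choice. This floor on saline values favours a negative change, not a positive one. The values remain a description. Reads mapped outside any gene made up 25.6% to 32.0% of mapped reads in pDG betamethasone libraries and 24.5% to 34.3% in pDG saline libraries, and their part in the result was not tested.

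ENSMFAG00000030854 had the lowest p in pDG. Its values were 9.78, 11.1, 6.88, 11.1 and 12.05 CPM with betamethasone and 4.42 to 8.88 CPM (median 5.29) with saline, so the groups overlapped through 1 library each. Its log2 change was 0.82 ± 0.20 (SE; edgeR adjusted p = 0.329), and DESeq2, which called 0.568% of all genes in pDG, called it alone among members (adjusted p = 0.0339). Of its reads over both strands, 49.1% lay on the opposite strand, against a median of 0.280% over members, and with both strands counted together its log2 change was 0.55. ENSMFAG00000040848 had 123, 127, 127, 136 and 114 CPM with betamethasone and 89.9 to 116 CPM (median 106) with saline (log2 change 0.26 ± 0.09 SE, edgeR adjusted p = 0.465), with a small overlap. On the negative side, ENSMFAG00000046154 (-0.32) and ENSMFAG00000028602 (-0.38) had the lowest p, and neither passed.

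The summed level of the members gave another view in pDG. It was 6704 to 8370.4 CPM in betamethasone libraries and 6291 to 9971 CPM in saline libraries. Without ENSMFAG00000039111, which held 4425 CPM in 1 saline library, it was 6365 to 7532 CPM with betamethasone and 5546 to 6865 CPM with saline. The groups overlapped either way.

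In BLA, 63 of the 64 members passed the filter on low counts and 0 genes of 14567 passed the threshold (0%). At an unadjusted p under 0.05, 5 members were higher, where 5.57% of all genes were, and 1 was lower, where 7.55% were. DESeq2 called 0 members and 1.19% of all genes. The median log2 change was 0.12 over these members and -0.01 over all genes, and 40 of 63 (63.5%) were positive, where 48.9% of all genes were. The selection set a ceiling on BLA saline values, so a positive change lies on the side that it favours. With BLA saline replicate 5 kept the median was 0.05 and 35 members were positive. ENSMFAG00000031872 had 45.1, 30.6, 58.0 and 49.3 CPM with betamethasone and 27.4, 30.05, 29.2, 42.6 and 31.4 CPM with saline (log2 change 0.57 ± 0.19 SE, edgeR adjusted p = 0.331), with overlap. ENSMFAG00000040848 had a log2 value of 0.26 for the same contrast (edgeR adjusted p = 0.352). ENSMFAG00000046219 had 0.989, 0.669, 0.801 and 1.07 CPM with betamethasone and 1.42, 1.67, 0.864, 1.89 and 1.96 CPM with saline (log2 change -0.78 ± 0.31 SE, edgeR adjusted p = 0.357), with 1 saline library among the betamethasone values. ENSMFAG00000031509 (-0.46) came next on that side.

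In ACC, 61 of the 64 members passed the filter, and 48 of 14543 genes passed the threshold (0.33%), with 0 members among them. At an unadjusted p under 0.05, 5 members were higher, where 8.14% of all genes were, and 9 were lower, where 7.87% were. The median log2 change was -0.01 over members and -0.004 over all genes, and 28 of 61 (45.9%) were positive, where 49.0% of all genes were. ACC saline values also had a ceiling in the selection, which favours a positive change. DESeq2 called 3.83% of all genes and 2 members, 1 in each direction. ENSMFAG00000031872 was the higher one, with 21.6 to 47.3 CPM (median 34.5) with betamethasone and 18.8 to 29.8 CPM (median 23.2) with saline. Its log2 change was 0.57 ± 0.18 (SE), with an adjusted p of 0.151 in edgeR and 0.0486 in DESeq2. ENSMFAG00000039111 was the lower one, with 0.805 to 3.59 CPM (median 1.21) with betamethasone and 2.15 to 6.09 CPM (median 4.29) with saline. Its log2 change was -1.30 ± 0.36 (SE), with an adjusted p of 0.125 in edgeR and 0.0188 in DESeq2. Both pairs of groups overlapped. ENSMFAG00000041424 (0.59) and ENSMFAG00000001122 (-0.75) were next in edgeR, and neither passed in either tool.

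**Figure D5:**
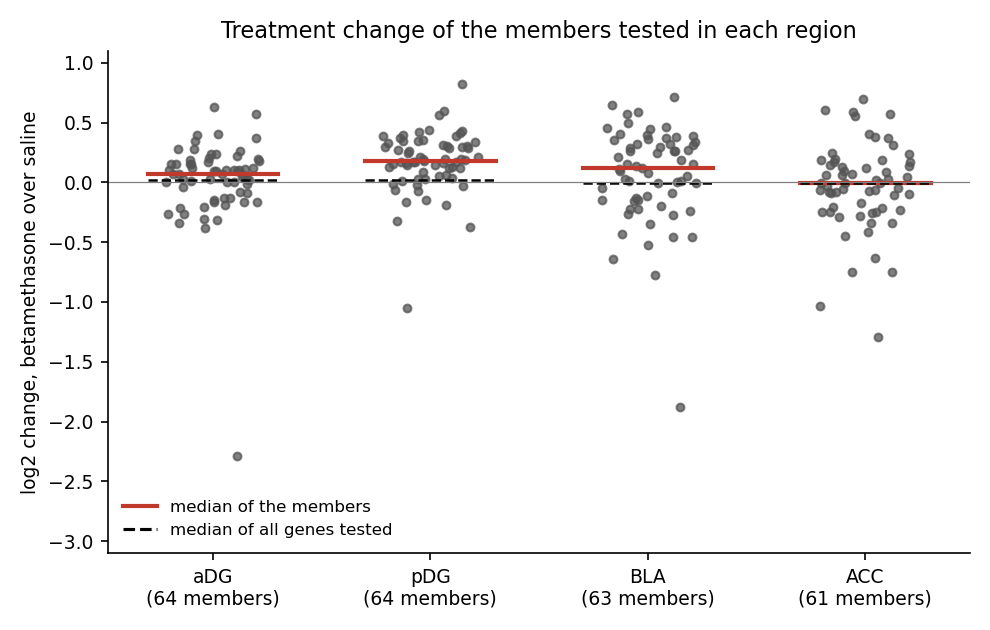
log2 change of betamethasone over saline (y axis) for each member tested in each region, 1 point per member; red lines are medians of the members and dashed lines medians of all genes tested. The member medians are 0.07 in aDG, 0.18 in pDG, 0.12 in BLA and -0.01 in ACC, and no point passed the edgeR threshold.

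Whether the treatment change differed between regions was tested as the interaction over 42 libraries and 15240 genes. In edgeR 0 genes passed (0%), so 0 members did. At an unadjusted p under 0.05 there were 3 members, where 2.81% of all genes were: ENSMFAG00000043420, ENSMFAG00000001122 and ENSMFAG00000046219, named because the count is small. DESeq2 called 0.0394% of all genes and 0 members. The log2 values of ENSMFAG00000043420 were 0.57 in aDG, 0.43 in pDG, -0.20 in BLA and -1.03 in ACC, and in ACC it had 0.292 to 1.28 CPM with betamethasone and 0.923 to 1.83 CPM with saline. The interaction was tested gene by gene, so it does not compare the medians over members. The different medians in the 4 regions are values beside each other, and their difference was not tested.

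Genes outside the 64 also followed the summed member level. Over the 42 libraries, ENSMFAG00000045555 (Spearman rho 0.94) and ENSMFAG00000000970 (rho 0.91) were the non-members most like it, and the members themselves had rho of 0.64 to 0.92 (median 0.81). The libraries share regions, and each member is part of the sum that it is compared with, so these are descriptions. Members of high level weigh most in that sum. ENSMFAG00000045555 had a median of 119 CPM in pDG betamethasone libraries and 105 CPM in pDG saline libraries. In BLA it had a median of 81.8 CPM with betamethasone and 72.9 CPM with saline, and in ACC 46.4 CPM with betamethasone and 42.1 CPM with saline. Its ratio of 1.07 and the 0.965 of ENSMFAG00000000970 place both outside the selection.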

How the data were processed

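Read counts per gene were deposited for each of 44 libraries as whole numbers, and the submitters' processing notes name STAR as the tool the authors used. The tool's version, the kit and the annotation are not given in these sources. Each table holds 17452 gene rows. The count column of 1 strand (column 4) was used, whose gene total was 51.7 to 79.3 times that of the other strand. Rows naming no gene were left out: reads outside genes made up 24.5% to 37.2% of mapped reads, ambiguous ones 0.333% to 0.455%, and unmapped reads were 11.0% to 31.4% of all reads. The 31.4% was in pDG saline replicate 6 alone, and the next highest was 16.9% in ACC saline replicate 5. Repeated identifiers were summed. No member stood on more than 1 row. Depth was 28449737 to 83322595 gene reads, so the spread between libraries limits precision more than counting does, except for genes near 0 CPM. Some members were that low in BLA or ACC.

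The count test was that of edgeR 4.0.16 under R 4.3.3 (TMM scaling, filterByExpr with a minimum count of 10 and a minimum total of 15, robust quasi-likelihood F tests, Benjamini-Hochberg adjustment over all genes tested, threshold 0.05). Regions were compared in the 20 betamethasone libraries in 1 fit, treatment within each region, and their interaction in 42 libraries. SE of a log2 change was its size over the square root of its F value. The scripts were tested on simulated data. Alternatives were DESeq2 1.42.0, other scaling, no filter, unstranded counts, each library left out, both libraries that stood apart kept, and title-number sets as a block. Over all 44 libraries, the 101 pairs within groups all differed beyond sampling noise, with a chi-square of 20.6 to 454 per degree of freedom.

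Members, lists and the libraries left out were chosen with earlier results of these data known. Replicate numbers follow accession order and pair no libraries. Named members were fixed by rule: the 2 of largest ratio, the 2 of highest pDG saline level, the 2 of lowest p in each direction per treatment comparison and in aDG against pDG, the 2 of largest fall of the ratio, and the 2 non-members most like the summed level. Lists of marker genes and glucocorticoid targets by symbol could not be applied, since no identifier was paired with a symbol.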

Additional observations from a re-analysis of the deposited data

Results flagged for a closer look

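Of 160 groups of named members tested for a value far from the rest, 18 (11.25%) held one, where chance gives about 5%. The 2 libraries that stood apart account for 7 of them. The library labelled aDG saline replicate 5 lay far below the other aDG saline libraries in the median level of the members (15.7% of the pDG saline median), in ENSMFAG00000000781 (248 CPM) and in ENSMFAG00000046219 (0.914 CPM). BLA saline replicate 5 lay far above its group in ENSMFAG00000000781 (702 CPM), ENSMFAG00000034246 (1260 CPM), ENSMFAG00000041424 (510.1 CPM) and ENSMFAG00000039481 (0.0714 CPM).

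ENSMFAG00000039111 had a single high library in aDG betamethasone (replicate 2, 292 CPM), in pDG saline (replicate 5, 4425 CPM) and in BLA saline (replicate 3, 8.41 CPM). ENSMFAG00000039481 had a high library in aDG betamethasone (replicate 4, 88.0 CPM) and in ACC saline (replicate 1, 0.267 CPM) and a low one in pDG betamethasone (replicate 1, 40.5 CPM). ENSMFAG00000043420 had a high library in aDG betamethasone (replicate 5, 122 CPM), and ENSMFAG00000003860 one in BLA betamethasone (replicate 3, 5.02 CPM). ENSMFAG00000032756 had a high library in BLA saline (replicate 4, 22.6 CPM). Low libraries were found for ENSMFAG00000045093 in ACC betamethasone (replicate 5, 2.27 CPM) and ENSMFAG00000046154 in BLA betamethasone (replicate 1, 2.93 CPM).

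On the strand that was not used for counting, ENSMFAG00000030854 held 49.1% of its reads over both strands, where the next highest member held 8.05% and 48 of the 64 members held under 1%.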

How the results depend on the processing

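No result past a threshold changed direction. The median treatment change in ACC, -0.01, had no stable sign: with single libraries left out it was -0.03 to 0.02, above 0 when the library left out was ACC betamethasone replicate 1 or ACC saline replicate 1 or 4, and 27 to 31 members were positive. The number of members was 35 with a ratio limit of 2 and 99 with the looser limit planned, and of these 30 and 85 met the same limit in betamethasone libraries. Other selection settings gave 55 to 69 members, and leaving out each pDG saline replicate gave 64 to 74, the 64 among them each time. With a BLA, ACC or pDG betamethasone library left out, 56 to 58 members met the rule there. Counts against BLA and ACC stayed within 62 to 64. Of aDG against pDG, the count of members lower was 9 in DESeq2 and 2 to 6 with single libraries left out. DESeq2 called 1 member for treatment in pDG (ENSMFAG00000030854, 0.81) and 2 in ACC (ENSMFAG00000031872 at 0.57 and ENSMFAG00000039111 at -1.29), where edgeR called 0, and the cause was not tested. The median treatment change was 0.26 in aDG and 0.045 in BLA with the library that stood apart kept.

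The labels name no animals. Title numbers gave sets of libraries across regions. Of 29 pairs of betamethasone libraries in a set, 22 had deviations with a correlation above 0.1 (-0.13 to 0.69, median 0.24). Libraries recur among these pairs, and no pairs from different sets are given beside them as a background. Whether a set shares an animal is not known. The main fits treated all libraries as independent, which may not hold within a set. With the sets as a replicate block, 9 members were lower in aDG than in pDG, and 0 members passed the interaction. The 9 are given without the share of all genes under the block.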
